A study of Mus musculus with 8 samples.

Results

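Metallothioneins and zinc transporters were examined in whole kidneys as 10 genes of the 55367 listed in the count table, chosen by name as *Mt1*, *Mt2*, *Mtf1*, *Slc30a1*, *Slc30a2*, *Slc39a4*, *Slc39a5*, *Slc39a8*, *Slc39a10*, and *Slc39a14*. All 10 passed the filter on low counts, among 20149 genes that did. Metallothioneins are small, cysteine-rich proteins that bind zinc and copper in the cytosol and also trap cadmium. Zinc exporters of the SLC30 (ZnT) family move zinc out of the cytosol, either out of the cell or into vesicles, and importers of the SLC39 (ZIP) family move it in. MTF-1, the zinc-sensing transcription factor encoded by *Mtf1*, binds metal response elements (MREs) in the promoters of metallothionein genes and *Slc30a1*, and the tubules of the kidney take up filtered metallothionein with the metal it carries.

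RNA-Seq was performed on kidneys of 4 *c-Maf* ΔTAM (knockout) and 4 *c-Maf fl/fl* (control) mice of the C57BL/6J strain, each 8 weeks old. Both genotypes carried floxed *c-Maf*, and the knockout mice also carried *CAG-Cre-ER* TM, a TAM-inducible Cre under a ubiquitous promoter, so that deletion was not limited to the kidney. The study's methods describe TAM treatment of both genotypes, and the comparison asks which genes depend on *c-Maf* in the adult kidney. The deposited values were unnormalized read counts per gene. Totals in knockout mice 1 to 4 were 22990257, 18896014, 17188052, and 16649129 counts. In control mice 1 to 4, they were 18696580, 20890209, 20371115, and 19897769 counts. Levels are given as TMM-normalized CPM (counts scaled to a common library size), in which 1 count was worth between 0.0451 and 0.0586 CPM.

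Some libraries stood apart. *Xist*, the transcript of the inactive X chromosome, had 2 counts in knockout mouse 1, 6 in control mouse 3, and 22 in control mouse 4, whereas the other 5 mice had between 17618 and 22387 counts. The labels state no sex, so values in the *Xist*-high mice (3 knockout and 2 control) are given for several results below. No test was run within the *Xist*-low mice, of which 1 was a knockout. The share of counts from mitochondrial genes was 32.3% in knockout mouse 1 and between 17.1% and 25.5% in the other 7. The label of the tissue was checked against marker genes, because an extraction note in the labels names liver. *Umod*, a marker of the thick ascending limb of the kidney, was at 2588 ± 667 CPM (SD, n = 4) in knockout and 2829 ± 349 CPM (SD, n = 4) in control mice. Of 5 hepatocyte genes, *Ahsg* had 0 counts in all 8 mice. In knockout and control mice, respectively, *Alb* was at 1.37 ± 0.830 and 5.65 ± 3.06 CPM, *Apoa1* at 0.653 ± 0.750 and 0.339 ± 0.280 CPM, *Serpina1a* at 9.89 ± 5.98 and 2.51 ± 1.64 CPM, and *Apob*, the most abundant per length, at 554 ± 98.8 and 675 ± 43.9 CPM (SD, n = 4).

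*Maf*, the targeted gene, was at 9.06, 34.5, 29.6, and 10.1 CPM in knockout mice 1 to 4 and at 379.9, 342.2, 305.4, and 351.1 CPM in control mice 1 to 4. Every knockout mouse lay below every control mouse, as the labels require. The log2 fold change of knockout relative to control mice was -4.05, with a standard error of 0.512 and an adjusted *P* of 0.0115. The test was edgeR's quasi-likelihood test with Benjamini-Hochberg adjustment over all genes tested, and a gene is called higher or lower below where its adjusted *P* was under 0.05. In *Xist*-high mice, the value was -3.87 with an adjusted *P* of 0.108, the highest of 17 alternative fits (other normalizations, tests, filters, covariates, or left-out mice), of which the lowest was 1.36e-17.

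Of the 10 genes, *Slc30a2* was lower in knockout mice and 0 were higher. Of all 20149 genes tested, 436 (2.16%) were called, 118 (0.586%) higher and 318 (1.58%) lower. Without adjustment, 2 of the 10 genes (*Slc30a2* and *Slc39a14*) had a *P* under 0.05, compared with 2825 of all genes tested (14.02%), and edgeR's exact test, DESeq2, and limma-trend after quantile normalization each called *Slc30a2* alone. The values of the genotypes did not overlap for 1 of the 10 genes, compared with 1973 of all genes tested (9.79%). The median log2 fold change was -0.19 over the 10 genes and 0.00 over all genes tested, and 4 of the 10 were positive. In the alternatives that tested all 10, the median lay between -0.26 (without knockout mouse 4) and -0.04 (without knockout mouse 1), and it was -0.05 without control mouse 1 and -0.06 in *Xist*-high mice. An edgeR fit of genotype, *Xist* class, and their interaction was chosen after the values had been seen. Within the control mice (2 *Xist*-low and 2 *Xist*-high), it called 5 of the 10 genes between the classes, compared with 1334 of all genes tested (6.62%). The log2 fold change of *Xist*-low relative to *Xist*-high control mice was -1.27 for *Mt2* (adjusted *P* = 0.0119), -0.70 for *Slc39a5* (0.00674), 0.70 for *Slc39a8* (0.000381), 0.62 for *Slc30a2* (0.0296), and 0.48 for *Slc39a10* (0.0160). Kidneys are mixtures of cells, and in bulk RNA, fewer cells of a type and less RNA per cell cannot be told apart.

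**Figure D1:**
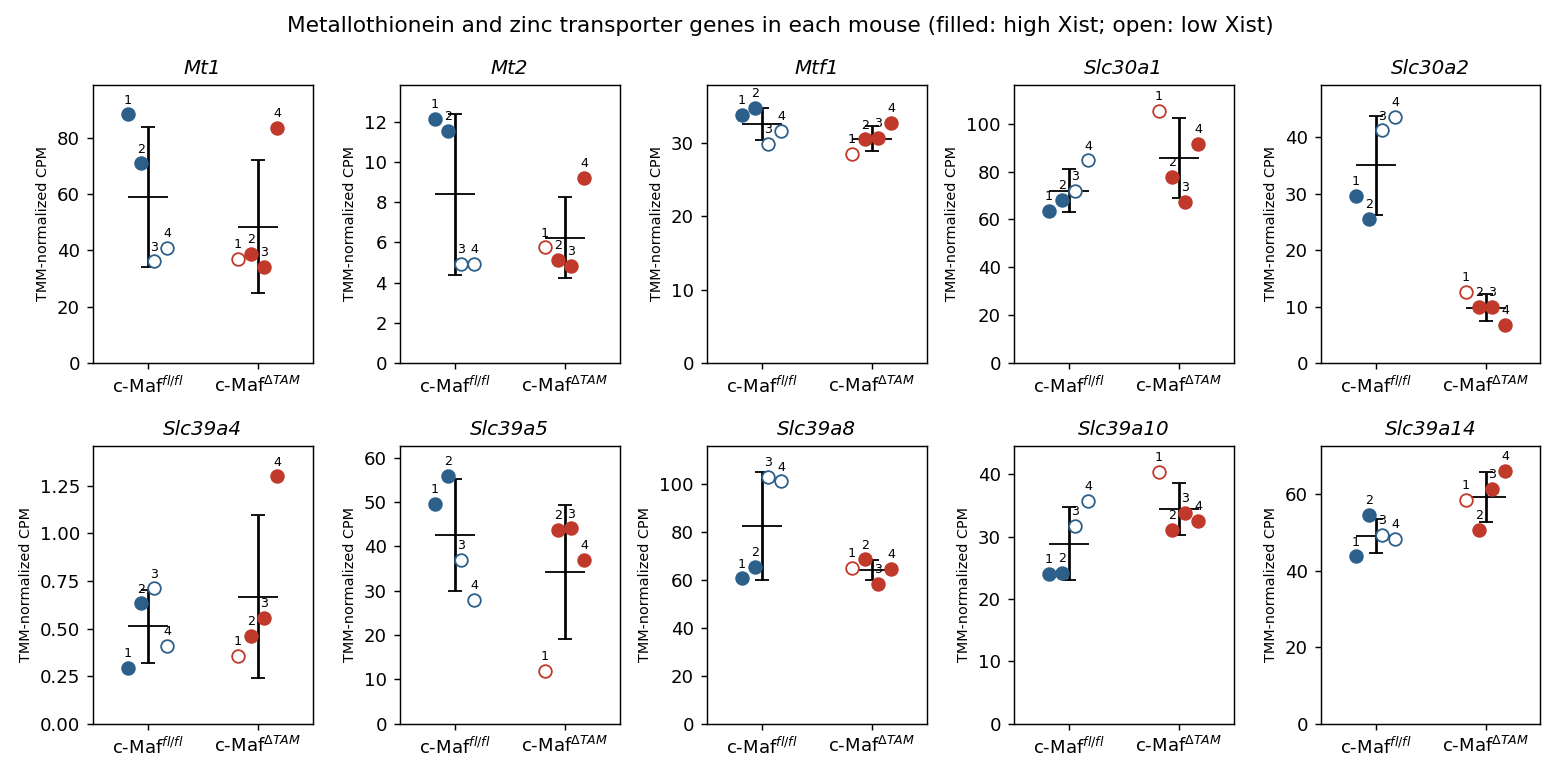
TMM-normalized CPM (vertical axis) of the 10 genes in each mouse, with *c-Maf fl/fl* (control) mice in blue and *c-Maf* ΔTAM (knockout) mice in red. Numbers give the mouse, open circles are the 3 *Xist*-low mice, and horizontal lines with bars are the mean and SD of 4 mice. The genotypes are separate for *Slc30a2* alone, with knockout mice between 6.71 and 12.6 CPM and control mice between 25.6 and 43.6 CPM.

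The metallothionein genes lie together on chromosome 8 of GRCm38, where *Mt4*, *Mt3*, *Mt2*, and *Mt1* span 43131 bases from 94137197 to 94180327. *Mt1* (94179082 to 94180327, plus strand) and *Mt2* (94172664 to 94173568, plus strand) are 5513 bases apart. *Mt1* was at 37.0, 38.7, 34.2, and 83.6 CPM in knockout mice 1 to 4 and at 88.2, 70.8, 36.03, and 40.8 CPM in control mice 1 to 4. It was high in knockout mouse 4 and in control mice 1 and 2, and the other 5 mice lay between 34.2 and 40.8 CPM, so the genotypes overlapped. All 3 high mice were *Xist*-high, as were knockout mice 2 and 3, which were not high. Means were 48.4 ± 23.6 CPM (SD, n = 4) in knockout and 59.0 ± 24.9 CPM (SD, n = 4) in control mice. Its log2 fold change was -0.29, with a 95% confidence interval from -1.28 to 0.70 (adjusted *P* = 0.823). Its exact permutation *P*, two-sided over all 70 assignments of mice, was 0.514. With single mice left out, the log2 fold change lay between -0.69 (without knockout mouse 4) and -0.03 (without control mouse 1).

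*Mt2*, whose protein binds the same metals, was at 5.75, 5.14, 4.82, and 9.20 CPM in knockout mice 1 to 4 and at 12.2, 11.6, 4.92, and 4.93 CPM in control mice 1 to 4. The high mice were those in which *Mt1* was high. The estimated log2 fold change was -0.44 (95% confidence interval from -1.22 to 0.35, adjusted *P* = 0.646), and with single mice left out it lay between -0.68 (without knockout mouse 4) and -0.20 (without control mouse 1). In *Xist*-high mice it was -0.89 (adjusted *P* = 0.0839), and for *Mt1* it was -0.61 (adjusted *P* = 0.715). Over 17 alternative fits, the adjusted *P* ranged from 0.0839 to 0.854 for *Mt2* and from 0.430 to 0.988 for *Mt1*. *Mt1* had between 6.13 and 9.08 counts for each count of *Mt2* in the 8 mice. The counts of *Mt2* are uncertain as a level, because 432 of its 588 exonic bases (73.5%) also belong to *Gm45774* on the opposite strand. Counting ignored strand and left out reads on exons of more than 1 gene, so only reads outside those bases counted for *Mt2*. *Mt1* shared 0 exonic bases with another gene, and 0 of its 36-base sequences occurred in transcripts of other genes, *Mt2* included.

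Of the other metallothionein genes, neither passed the filter. *Mt3*, the form known from the brain and the more abundant of the pair, had between 2 and 10 counts per mouse. *Mt4*, the form of stratified epithelia, had 0 counts in all 8 mice, which allows up to 3 counts, or between 0.135 and 0.176 CPM per mouse. This limit covers counting error only.

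Glucocorticoids induce metallothionein genes, and a list of 10 glucocorticoid response genes was examined in the same mice. The summed level of the list was 518.1, 679, 572, and 1046 CPM in knockout mice 1 to 4 and 1168, 1123, 735, and 601.6 CPM in control mice 1 to 4. Its highest mice were knockout mouse 4 and control mice 1 and 2, as for *Mt1* and *Mt2*. These 3 mice were also the highest for 5 of the 10 single genes, compared with 1038 of the 20149 genes tested (5.15%), a comparison chosen after the values had been seen. *Fkbp5*, *Tsc22d3*, *Dusp1*, *Ddit4*, and *Cebpd* had other highest mice, which for *Fkbp5* and *Tsc22d3* were control mice 1, 2, and 3. In the other lists described below, the same 3 mice were the highest for 0 of 11 IL-6 and STAT3 response genes. They were so for 0 of 9 oxidative stress response genes and 1 of 21 iron and copper genes. *Klf9*, the most abundant gene of the list per length, was between 173.7 and 294.2 CPM. Between genotypes, edgeR's quasi-likelihood test called 0 of the 10, with a median log2 fold change of -0.42 and 1 unadjusted *P* under 0.05 (compared with 14.02% of all genes tested), and DESeq2 and edgeR's exact test each called 1 lower. The median lay between -0.73 (without knockout mouse 4) and -0.25 (without control mouse 1) over the alternatives. In *Xist*-high mice 1 was called higher, and 1 was lower without knockout mouse 4. The part of these genes' signal in the metallothionein levels was not tested.

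**Figure D2:**
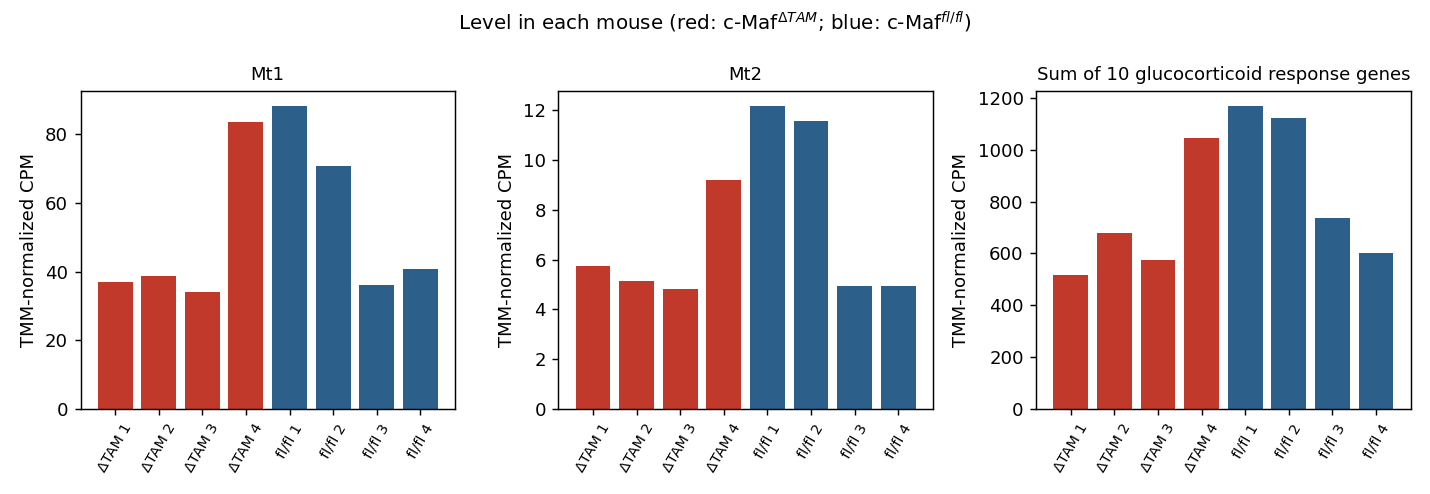
TMM-normalized CPM (vertical axis) of *Mt1*, *Mt2*, and the sum of 10 glucocorticoid response genes, with 1 bar per mouse in red for *c-Maf* ΔTAM (knockout) and blue for *c-Maf fl/fl* (control) mice. In each panel the 3 highest bars are knockout mouse 4 and control mice 1 and 2, which for *Mt1* reached 83.6, 88.2, and 70.8 CPM.

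The genes whose log2 CPM followed *Mt1* most closely over the 8 mice, among 17483 genes with a mean of at least 1 CPM, were *Fibp* (Pearson *r* = 0.976), *Zfp366* (0.974), and *Nyap1* (0.966). For *Mt2* they were *Gpr17* (0.980), *Tmem88* (0.978), and *Ppp1r7* (0.975). None of these genes was called between genotypes, with adjusted *P* values from 0.595 for *Tmem88* to 0.834 for *Zfp366*. These correlations describe 8 libraries and are the largest of many.

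*Mt1* and *Mt2* had the same highest mice, so the bases before their starts are shown. RefSeq promoter windows (GRCm38.p6) of 300 bases, 250 before to 50 after a gene's start, were found for 8 of the 10 genes, and *Slc39a4* and *Slc39a14* had no entry. They were searched on both strands for the MRE cores TGCACNC and TGCGCNC, the half-MARE TGCTGAC, the TRE core TGACTCA, the CRE core TGACGTCA, and the antioxidant response core TGACNNNGC, where N is any base. The TRE core and the antioxidant core can overlap, as they do in *Mt2*. Below, capitals mark every match, and the bases run up to the gene start given for *Mt1* in the count table and to the RefSeq start for *Mt2*, on the plus strand at chr8:94178839-94179081 and chr8:94172368-94172617.
Mt1: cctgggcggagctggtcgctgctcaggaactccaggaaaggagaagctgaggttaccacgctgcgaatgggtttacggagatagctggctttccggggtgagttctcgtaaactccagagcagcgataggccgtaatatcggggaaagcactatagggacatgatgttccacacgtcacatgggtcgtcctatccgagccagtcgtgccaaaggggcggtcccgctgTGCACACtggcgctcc
Mt2: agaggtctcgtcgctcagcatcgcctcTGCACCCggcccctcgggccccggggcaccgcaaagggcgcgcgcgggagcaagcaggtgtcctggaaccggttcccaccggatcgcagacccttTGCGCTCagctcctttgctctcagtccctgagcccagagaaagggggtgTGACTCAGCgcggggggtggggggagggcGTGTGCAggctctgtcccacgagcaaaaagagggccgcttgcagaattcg

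Over its whole window, *Mt1* had 3 MRE cores, and 1.97% of all 32851 windows held as many. Counted from its RefSeq start, which lies after its start in the count table, 2 of these cores began at bases 3 and 21. *Mt2* had 4, of which 1 began after the start, at base 5, and 0.517% of windows held as many. *Slc30a1* and *Slc30a2* had 2 each, as many as 7.11% of windows, and the *Slc30a2* window lies inside the gene as annotated in the count table. TGCACNC occurred in 12.6% of all windows, TGCGCNC in 15.4%, TGCTGAC in 4.67%, TGACTCA in 5.20%, TGACGTCA in 1.79%, and TGACNNNGC in 12.4%. TGCTGAC and TGACGTCA were not found in the windows of these genes. Bases beyond the 50 after the RefSeq start were not searched. The counts therefore need not cover the whole promoter of *Mt1* or another gene, and a core not found may lie outside the window. A match of letters is not a binding site, and binding was not measured in these data.

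*Mtf1* (chromosome 4, 124802104 to 124849800, plus strand) was at 28.5, 30.5, 30.7, and 32.7 CPM in knockout mice 1 to 4 and at 33.8, 34.8, 29.9, and 31.6 CPM in control mice 1 to 4. The genotypes overlapped and no mouse stood apart. The log2 fold change of this zinc sensor was -0.09 (95% confidence interval from -0.28 to 0.10, adjusted *P* = 0.714). Over the 17 alternatives it lay between -0.13 and -0.05, with adjusted *P* values from 0.418 to 0.874. *Mtf1* shared 8.09% of its exonic bases with *1110065P20Rik*.

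Among exporters, *Slc30a2* encodes ZnT2, which loads zinc into vesicles and is known for secreting zinc into milk. The gene (chromosome 4, 134343181 to 134354484, plus strand) was at 12.6, 9.91, 9.98, and 6.71 CPM in knockout mice 1 to 4. In control mice 1 to 4, it was at 29.6, 25.6, 41.2, and 43.6 CPM. Every knockout mouse lay below every control mouse, and control mice 3 and 4, with low *Xist*, were the highest. Counts were between 124 and 248 in knockout and between 567 and 812 in control mice. Means were 9.81 ± 2.42 CPM (SD, n = 4) and 35.0 ± 8.76 CPM (SD, n = 4). *Slc30a2* was 3.56-fold higher in control than in knockout mice, a log2 fold change of -1.83 for knockout relative to control mice (standard error 0.219, 95% confidence interval from -2.32 to -1.35, adjusted *P* = 0.00178). The exact permutation *P* was 0.0286, the smallest that 70 assignments can give. In *Xist*-high mice the log2 fold change was -1.64 (adjusted *P* = 2.74e-05), and among the *Xist*-low mice the knockout mouse was at 12.6 CPM and the control mice at 41.2 and 43.6 CPM. Over the 17 alternatives its adjusted *P* ranged from 7.61e-14 to 0.0391. *Slc30a2* shared 0 exonic bases and 0 of its 36-base sequences with other genes.

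Markers of the S1 and S2 segments of the proximal tubule, which reabsorb most filtered solutes, were examined beside *Slc30a2*. Of 8 such genes, 5 were called lower (*Slc34a1*, *Slc5a2*, *Slc5a12*, *Slc6a19*, and *Slc4a4*) and 0 higher. Of all genes tested, 1.58% were lower and 0.586% higher. The median log2 fold change of the list was -1.11, and between 4 and 6 were lower over the 17 alternatives. The unadjusted *P* was under 0.05 for 6 of the 8 (compared with 14.02% of all genes tested). Their summed level was 7866, 11529, 11178, and 10338 CPM in knockout mice 1 to 4 and 14337, 16153, 15333, and 15365 CPM in control mice 1 to 4, so the genotypes did not overlap. The most abundant of them per length was *Slc34a1*, the sodium-phosphate cotransporter, with a log2 fold change of -1.23 (adjusted *P* = 0.000217), and 0 of the 8 were at 0 counts. *Slc5a2* encodes SGLT2, which the study's title names as regulated by c-Maf directly, so it is not an independent marker of the segment. All of the 8 but *Lrp2* are SLC genes, and the study links *c-Maf* to SLC-mediated transport. The others may therefore not be independent markers either. *Lrp2*, with a log2 fold change of -0.17 (adjusted *P* = 0.719), and *Slc22a6*, with -0.49 (adjusted *P* = 0.605), overlapped between genotypes. *Slc13a3*, with -0.87 (adjusted *P* = 0.0763), was not called but did not overlap. In all, 6 of the 8 did not overlap (compared with 9.79% of all genes tested). The part of these segments' signal in the level of *Slc30a2* was not tested.

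The S3 segment list (5 genes) had 0 calls, and its sum was 1119, 250.8, 269.8, and 231.9 CPM in knockout mice 1 to 4 and 175.4, 234.1, 1009, and 1053 CPM in control mice 1 to 4, high in *Xist*-low mice. Of the endothelial list (4 genes), 1 was lower (*Kdr*, log2 fold change -0.37, adjusted *P* = 0.0450), compared with 1.58% of all genes tested. The list had 0 calls whenever a single mouse was left out. The summed level of this list was below that of every control mouse in all knockout mice (between 299.7 and 304.8 CPM, against between 321.1 and 370.8 CPM), and that of the macrophage list was above (between 87.7 and 92.8 CPM, against between 78.6 and 84.4 CPM). Of single genes, 1 of 4 endothelial and 0 of 5 macrophage genes did not overlap between genotypes (compared with 9.79% of all genes tested). The share for sums of other gene sets was not counted. In the lists for thick ascending limb, distal convoluted tubule, collecting duct, podocytes, macrophages, fibroblasts, lymphocytes, hepatocytes, and tubular injury, edgeR's quasi-likelihood test called 0 genes. At an unadjusted *P* under 0.05 these lists had 0 of 4, 1 of 3, 0 of 7, 0 of 4, 1 of 5, 0 of 4, 0 of 1, 3 of 3, and 1 of 4 tested genes, respectively, and the S3 list had 1 of 5 (compared with 14.02% of all genes tested). The most abundant gene per length had a log2 fold change of -1.51 in the S3 list (*Slc7a13*), -0.15 in the endothelial (*Pecam1*), -0.13 in the thick ascending limb (*Umod*), 0.05 in the distal convoluted tubule (*Slc12a3*), 0.25 in the collecting duct (*Aqp2*), 0.03 in the podocyte (*Podxl*), -0.04 in the macrophage (*C1qb*), 0.09 in the fibroblast (*Pdgfrb*), -0.28 in the hepatocyte (*Apob*), and -0.46 in the tubular injury list (*Spp1*), with adjusted *P* values from 0.340 to 0.942. In the lymphocyte list it was *Cd79a*, which had between 1 and 10 counts per mouse and was not tested. DESeq2 called 1 gene each in the S3, distal convoluted tubule, and hepatocyte lists, edgeR's exact test called 2 in the hepatocyte list, and limma-trend called 1 in the S3 list. With *Xist* as a covariate, 2 genes were called in the S3 list and 1 each in the thick ascending limb, hepatocyte, and tubular injury lists. In *Xist*-high mice, 2 were called in the hepatocyte list and 1 in the tubular injury list. Leaving out a mouse gave 1 call in the hepatocyte list (knockout mouse 1 or 2) and 1 in the distal convoluted tubule list (knockout mouse 3).

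The genes most like *Slc30a2* over the 8 mice were *Hmcn2* (Pearson *r* = 0.993), *Gm5454* (0.992), and *Tnfaip8* (0.991). *Tnfaip8* was at 77.8, 76.7, 74.9, and 49.6 CPM in knockout mice 1 to 4 and at 174.9, 177.5, 275.1, and 237.9 CPM in control mice 1 to 4. As for *Slc30a2*, knockout mouse 4 was the lowest of the 8 and control mice 3 and 4 were the highest. All 3 genes were called lower in knockout mice. These correlations are the largest among 17483 genes and include the difference between genotypes. The shared order of mice and the calls therefore follow from how the genes were picked.

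*Slc30a1* encodes ZnT1, the exporter of the plasma membrane (chromosome 1, 191906767 to 191913247, plus strand). It was at 105.5, 78.0, 67.4, and 91.8 CPM in knockout mice 1 to 4 and at 63.4, 68.0, 72.1, and 84.7 CPM in control mice 1 to 4. Knockout mouse 1 was the highest and the genotypes overlapped. On the log2 scale, the fold change was 0.25 (95% confidence interval from -0.05 to 0.55, adjusted *P* = 0.461), and it was 0.14 without knockout mouse 1 and up to 0.35 with another mouse left out. It shared 8.92% of its exonic bases with *1700034H15Rik*. In the SLC30 family, 7 of 10 genes were tested. Of these, 1 was lower (*Slc30a2*) and 0 were higher, compared with 1.58% and 0.586% of all genes tested. The family's median log2 fold change was -0.02, between -0.07 and 0.04 over the alternatives. The most abundant per length of the other exporters was *Slc30a9*, at 134.1 ± 13.1 CPM (SD, n = 4) in knockout and 136.2 ± 9.59 CPM (SD, n = 4) in control mice.

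Among importers, *Slc39a10* encodes ZIP10, a plasma membrane importer (chromosome 1, 46807544 to 46892852, minus strand). It was at 40.4, 31.1, 33.8, and 32.5 CPM in knockout mice 1 to 4 and at 24.0, 24.2, 31.8, and 35.7 CPM in control mice 1 to 4. The genotypes overlapped. Within each *Xist* class every knockout mouse lay above every control mouse, but the *Xist*-low class held only knockout mouse 1. The share of all genes with such an order within the classes was not counted. The log2 fold change was 0.25 in all mice (95% confidence interval from -0.05 to 0.56, adjusted *P* = 0.461). With *Xist* (log2 CPM) as a covariate it was 0.36 (adjusted *P* = 0.0171), in a fit that called 577 genes (2.86%) higher. In *Xist*-high mice it was 0.43 (adjusted *P* = 0.0312), in a fit that called 322 genes (1.53%) higher. Leaving out single mice gave between 0.17 and 0.38. Over the 17 alternatives tried, its adjusted *P* ranged from 0.0171 to 0.678.

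*Slc39a8* encodes ZIP8, which imports zinc, manganese, and cadmium (chromosome 3, 135825279 to 135888572, plus strand). Its levels were 64.9, 68.5, 58.2, and 64.5 CPM in knockout mice 1 to 4 and 60.5, 65.2, 102.7, and 100.9 CPM in control mice 1 to 4. The control mice 3 and 4, with low *Xist*, were high, and knockout mouse 1, also with low *Xist*, was not. Its log2 fold change was -0.36 in all mice (95% confidence interval from -0.74 to 0.02, adjusted *P* = 0.382) and 0.02 in *Xist*-high mice (adjusted *P* = 0.963, the highest of 17 alternatives, with 0.165 as the lowest). Leaving out 1 mouse gave between -0.49 and -0.24. The edgeR fit with an interaction of genotype and *Xist* class gave an interaction of -0.67 on the log2 scale (adjusted *P* = 0.112), which rests on 1 knockout mouse.

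*Slc39a5* encodes ZIP5, an importer of the basolateral membrane of epithelia (chromosome 10, 128395931 to 128401229, minus strand). It was at 11.96, 43.7, 44.0, and 36.9 CPM in knockout mice 1 to 4 and at 49.5, 55.8, 36.9, and 27.9 CPM in control mice 1 to 4. The lowest mouse was knockout mouse 1, followed by control mouse 4, both with low *Xist*. The estimated log2 fold change was -0.32 (95% confidence interval from -1.33 to 0.69, adjusted *P* = 0.806). It was -0.03 without knockout mouse 1, -0.67 with *Xist* as a covariate (adjusted *P* = 0.149), and in *Xist*-high mice it was -0.34 (adjusted *P* = 0.0852, the lowest of 17 alternatives, with 0.965 as the highest). The interaction of genotype with *Xist* class was -1.10 on the log2 scale (adjusted *P* = 0.0793, edgeR), with the same single knockout mouse behind it.

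*Slc39a14* encodes ZIP14, which imports zinc, iron, and manganese and is induced by IL-6 in the liver (chromosome 14, 70303469 to 70351425, minus strand). It was at 58.5, 50.6, 61.4, and 66.2 CPM in knockout mice 1 to 4 and at 43.7, 54.6, 49.4, and 48.2 CPM in control mice 1 to 4. The genotypes overlapped through knockout mouse 2 and control mouse 2. On the log2 scale, the fold change was 0.27 (95% confidence interval from 0.05 to 0.49), with an unadjusted *P* of 0.0191 and an adjusted *P* of 0.240, and the exact permutation *P* was 0.0571.

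*Slc39a4*, which encodes the ZIP4 importer of dietary zinc in the intestine (chromosome 15, 76612383 to 76617384, minus strand), had 7, 9, 10, and 24 counts in knockout mice 1 to 4 and 6, 14, 14, and 7 counts in control mice 1 to 4. Knockout mouse 4 was the highest, at 1.30 CPM, and the genotypes overlapped. Its log2 fold change was 0.37 (95% confidence interval from -0.68 to 1.42, adjusted *P* = 0.796), and it was -0.17 without that mouse and 0.72 in *Xist*-high mice (adjusted *P* = 0.677).

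In the SLC39 family, 13 of 14 genes were tested, and edgeR's quasi-likelihood test called 0, with 2 unadjusted *P* values under 0.05 (compared with 14.02% of all genes tested) and 0 calls by DESeq2 or edgeR's exact test. The median log2 fold change was 0.03, between -0.03 and 0.08 over the alternatives. *Slc39a13*, an importer of the secretory pathway that was singled out after its values were seen, was the 1 gene of the 13 whose genotypes did not overlap (compared with 9.79% of all genes tested), at 40.245, 45.6, 46.1, and 44.8 CPM in knockout mice 1 to 4 and 39.7, 37.7, 40.188, and 37.2 CPM in control mice 1 to 4, a gap of about 1 count. Its log2 fold change was 0.19 (adjusted *P* = 0.308), and 4.42% of its exonic bases were shared with *Psmc3*. The most abundant per length of the other importers was *Slc39a1*, the ZIP1 importer, at 46.0 ± 3.72 CPM (SD, n = 4) in knockout and 46.9 ± 5.80 CPM (SD, n = 4) in control mice. Of all 28 metallothionein, SLC30, and SLC39 genes, 22 were tested. Among them, 1 was lower and 0 were higher (compared with 1.58% and 0.586% of all genes tested). For 2, the genotypes did not overlap (compared with 9.79% of all genes tested). The median log2 fold change of the 22 was -0.01, between -0.02 and 0.04 over the alternatives. The untested genes were *Mt3*, *Mt4*, *Slc30a3*, *Slc30a8*, *Slc30a10*, and *Slc39a12*.

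**Figure D3:**
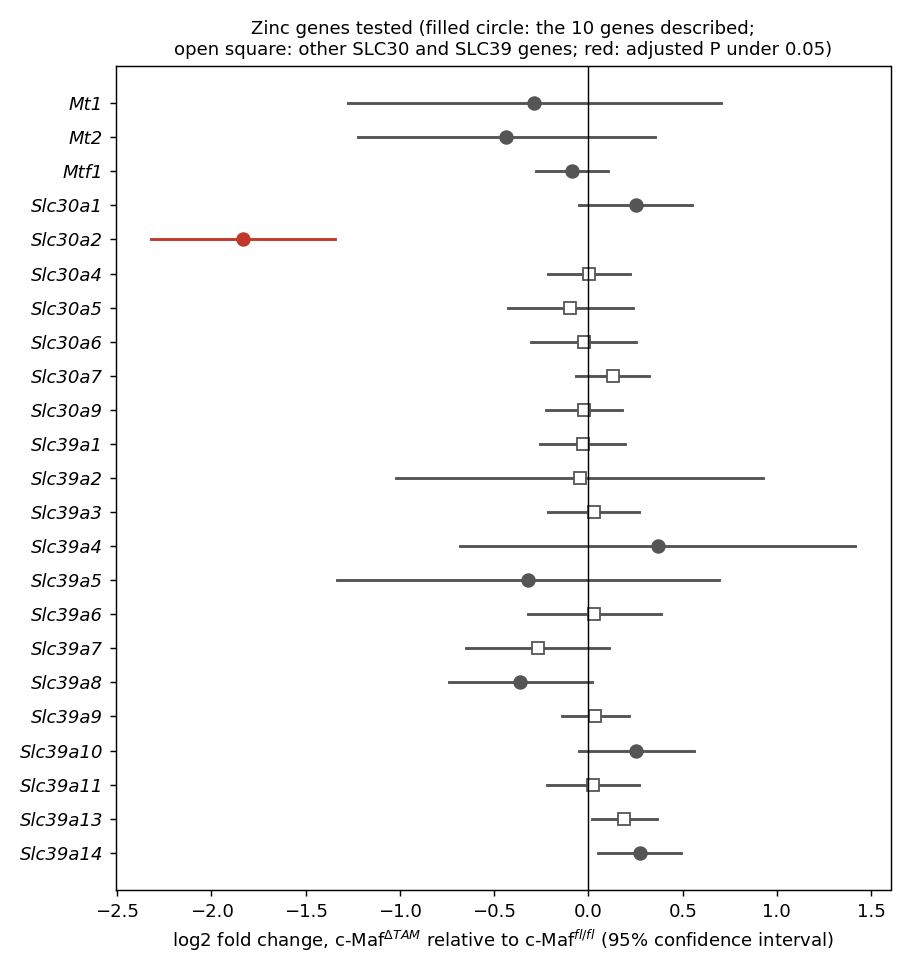
Log2 fold change of *c-Maf* ΔTAM (knockout) over *c-Maf fl/fl* (control) mice (horizontal axis, n = 4 per genotype) with its 95% confidence interval for *Mtf1* and the 22 tested metallothionein, SLC30, and SLC39 genes. Filled circles are the 10 genes described, open squares the other family members, and red marks an adjusted *P* under 0.05. *Slc30a2*, at -1.83, is the red point, and the intervals of *Mt1*, *Mt2*, *Slc39a2*, *Slc39a4*, and *Slc39a5* are wide.

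Levels were compared between genes per length, as RPKM (TMM-normalized CPM per kilobase of exon). In control mice, the order without *Mt2* was *Mt1* (47.3 ± 19.9 RPKM), *Slc39a5* (19.1 ± 5.63 RPKM), *Slc30a1* (13.7 ± 1.74 RPKM), *Slc39a8* (10.7 ± 2.95 RPKM), and *Slc30a2* (9.82 ± 2.46 RPKM; SD, n = 4). They were followed by *Slc39a10* (4.74 ± 0.951 RPKM), *Slc39a14* (4.64 ± 0.425 RPKM), *Mtf1* (3.65 ± 0.247 RPKM), and *Slc39a4* (0.165 ± 0.0621 RPKM; SD, n = 4). From *Slc39a5* to *Slc30a2*, each gene's range over the 4 control mice overlapped that of the next, as did the ranges of *Slc39a10* and *Slc39a14*. The other neighbors were separate over their full length. Over the bases not shared with another gene, *Mtf1* reached 4.25 RPKM in control mice and overlapped *Slc39a14*, whose lowest control mouse was at 4.14 RPKM. In knockout mice, *Slc30a2* came after *Mtf1*, at 2.75 ± 0.678 RPKM (SD, n = 4), with overlapping ranges. *Mt1* was at 38.8 ± 18.9 RPKM (SD, n = 4) in knockout mice. The place of *Mt2* depends on the length used. Over its full length it was at 14.3 ± 6.82 RPKM (SD, n = 4) in control mice, below *Slc39a5*, and over the 156 bases not shared with *Gm45774*, a length chosen after the values had been seen, it was at 53.8 ± 25.7 RPKM (SD, n = 4) in control and 39.9 ± 12.95 RPKM (SD, n = 4) in knockout mice, each above the mean of *Mt1* and with overlapping ranges. Reads that cross into the shared bases were left out as well, so this level is approximate.

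Some zinc importers also move iron, and metallothioneins also bind copper. Of 22 iron and copper genes 21 were tested, with 1 higher and 1 lower (compared with 0.586% and 1.58% of all genes tested). Their median log2 fold change was 0.10. The unadjusted *P* was under 0.05 for 7 of the 21 (compared with 14.02% of all genes tested). For 5, the genotypes did not overlap (compared with 9.79%). DESeq2 and limma-trend each called 3 higher and edgeR's exact test 2, with 1 lower in each. With *Xist* as a covariate, 4 were higher and 3 lower (compared with 577 and 885 of all 20149 genes). In *Xist*-high mice 2 were higher and 2 lower (compared with 322 and 467 of 21027 genes). Without knockout mouse 4, 3 were higher. The median was 0.06 without knockout mouse 1 and 0.15 with limma-trend. *Steap2*, a metalloreductase for iron and copper, was at 227.0, 278.9, 271.0, and 240.1 CPM in knockout mice 1 to 4 and at 174.1, 194.4, 182.9, and 175.1 CPM in control mice 1 to 4. All knockout mice were above all control mice, with a log2 fold change of 0.49 (adjusted *P* = 0.0171). The call was lost without knockout mouse 2 or 3 or control mouse 1, 3, or 4, with adjusted *P* values between 0.0510 and 0.0790. In those fits the log2 fold change lay between 0.44 and 0.49. *Ftl1*, the light chain of the iron store ferritin, was at 92.6, 117.4, 110.8, and 114.5 CPM in knockout mice and at 165.6, 173.1, 166.7, and 163.1 CPM in control mice 1 to 4. It was lower in every knockout mouse (log2 fold change -0.62, adjusted *P* = 0.00338), but 34.6% of its exonic bases are shared with *Gm10252* and *Gm22133*, and 62.6% of its 36-base sequences with other genes, mainly *Ftl1-ps1*, so its value is uncertain. *Fth1*, the ferritin heavy chain and the most abundant gene of the list per length, overlapped between genotypes (log2 fold change 0.18, adjusted *P* = 0.711).

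Oxidants release zinc from metallothioneins, and of 9 oxidative stress response genes 2 were lower and 0 higher. Of all genes tested, 1.58% were lower and 0.586% higher. The median log2 fold change of the list was -0.38. The unadjusted *P* was under 0.05 for 6 of the 9 (compared with 14.02% of all genes tested). DESeq2 called 5 lower (compared with 567 of all 20149 genes), edgeR's exact test 3 (424), and limma-trend 1 (255). With *Xist* as a covariate, 6 were lower (885 of all genes), and in *Xist*-high mice 2 were (467 of 21027). Without knockout mouse 2 or 3 or control mouse 4, 0 were lower. The median was -0.23 in *Xist*-high mice and -0.24 without control mouse 4. The genotypes did not overlap for 5 of the 9 genes (compared with 9.79% of all genes tested) or for their summed level, which was 878.7, 819.6, 863.9, and 829.5 CPM in knockout mice 1 to 4 and 896.7, 951.9, 1164, and 1419 CPM in control mice 1 to 4. *Hmox1*, heme oxygenase-1, was at 18.9, 11.4, 14.5, and 12.1 CPM in knockout mice 1 to 4 and at 21.9, 23.3, 30.6, and 29.2 CPM in control mice 1 to 4. *Nqo1*, a quinone reductase, was at 17.4, 13.1, 12.03, and 19.0 CPM in knockout mice and at 33.2, 27.1, 19.7, and 27.2 CPM in control mice 1 to 4. For both, every knockout mouse lay below every control mouse. The log2 fold change was -0.88 for *Hmox1* (adjusted *P* = 0.0194) and -0.80 for *Nqo1* (adjusted *P* = 0.0483). The call of *Hmox1* was lost without knockout mouse 2, 3, or 4 or control mouse 3 or 4 (adjusted *P* between 0.0573 and 0.0786). Its log2 fold change in those fits lay between -0.89 and -0.79. That of *Nqo1* was lost without knockout mouse 1, 2, or 3 or control mouse 1, 2, or 4 (adjusted *P* between 0.0663 and 0.151). The *Nqo1* call was also lost with quantile normalization (0.0728) and with a filter of 10 counts in every mouse (0.0533). In all these fits the log2 fold change of *Nqo1* lay between -0.86 and -0.68. *Gclc*, the most abundant of the list per length, was high in control mice 3 and 4 (441.1 and 640.1 CPM) and between 197.9 and 269.6 CPM in the others. Of 14 IL-6 and STAT3 response genes, 11 were tested and edgeR's quasi-likelihood test, edgeR's exact test, and DESeq2 each called 0, with 1 unadjusted *P* under 0.05 (compared with 14.02% of all genes tested) and a median log2 fold change of 0.17. With *Xist* as a covariate, 1 was called higher, and over the alternatives the median lay between 0.00 (a filter of 1 count in any mouse) and 0.34 (*Xist*-high mice), with 0.03 without knockout mouse 4. The most abundant of these per length, the receptor gene *Il6st*, had a log2 fold change of -0.02 (adjusted *P* = 0.966).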

How the data were processed

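Whole-kidney RNA-Seq counts of 8 mice were used. The authors deposited read counts per gene name, made with featureCounts version 2.0.1 by the header of the table, on exons of Ensembl release 102 of GRCm38, without normalization. Gene length in bases was also deposited. The submitters' processing notes name Subread 2.0.2 and edgeR 3.36.0. Each read of a pair was counted separately, strand was ignored, and reads on exons of more than 1 gene were left out. For its own values, the study describes mapping to mm10 in CLC Genomics Workbench, and the table's header does not name an aligner. The number of sample columns not used was 0.

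Genes were kept by filterByExpr, scaled by TMM, and compared with edgeR's quasi-likelihood test (robust fit) with edgeR 4.0.16 and limma 3.58.1 under R 4.3.3, at a Benjamini-Hochberg adjusted *P* under 0.05. Standard errors were derived from the size of the log2 fold change and the *F* value of its test, and intervals are 95%. The biological coefficient of variation was 0.203. Each mouse was 1 replicate, and no 2 libraries of a genotype agreed within sampling noise. Promoter sequences came from RefSeq, and 36-base sequences from GENCODE transcripts.

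The genes and lists (iron and copper, glucocorticoid, IL-6 and STAT3, oxidative stress, and kidney cell type and injury genes) were chosen with earlier results of these data known. Named genes were *Maf*, the 10 genes, the called and the most abundant gene of each list (at most 6 by *P*), and the 3 genes most correlated with *Mt1*, *Mt2*, and each called gene of the 10. Outside that rule, *Xist*, *Slc39a13*, *Slc39a2*, *Lrp2*, *Slc22a6*, *Slc13a3*, the hepatocyte genes, other metallothionein genes, untested family members, and genes that share sequence were also named. The glucocorticoid response genes whose highest mice differed from those of *Mt1* were named as well.

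Alternatives were DESeq2 1.42.0, edgeR's exact test, limma-trend after quantile normalization, RLE factors, a filter of 1 count in any mouse, a filter of 10 counts in every mouse, a replicate block, *Xist* as a covariate, *Xist*-high mice (at least 1000 counts) alone, and leaving out 1 mouse at a time. The fit with an interaction of genotype and *Xist* class and the level of *Mt2* per unshared length were added after the data had been seen. The test was checked on simulated counts with known changes, of which it recovered 78% at 2-fold and 99% at 4-fold. The simulation gave every gene the same variation between mice and held no *Xist* classes. It therefore does not show how smaller changes would fare in these mice. Python 3.11.15 and matplotlib 3.10.9 were used for the figures.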

Additional observations from a re-analysis of the deposited data

Results flagged for a closer look

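In groups of 4 mice, 55 sets of levels were examined for a mouse far from the other 3, by the gap to its nearest neighbor divided by the range, and 4 exceeded Dixon's 95% critical value, which chance passes in about 1 in 20 groups (2.75 of 55). For *Mt1*, knockout mouse 4 was at 83.6 CPM and the other knockout mice were between 34.2 and 38.7 CPM (gap over range 0.908). For *Slc39a6*, control mouse 4 was at 6.22 CPM and the others between 9.29 and 9.81 CPM (0.854). For *Mt3*, control mouse 2 was at 0.0903 CPM, or 2 counts, and the others between 0.410 and 0.457 CPM (0.874). For *Slc30a10*, knockout mouse 3 had 2 counts and the others 0 (a ratio of 1), which is too few to compare.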

How the results depend on the processing

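*Slc30a2* was called lower in all 17 alternatives, with a log2 fold change between -1.98 and -1.64 and an adjusted *P* of at most 0.0391. The count of all called genes (436) was 676 with edgeR's exact test (252 higher and 424 lower) and 886 with DESeq2 (319 and 567). It was 1462 with *Xist* as a covariate (577 and 885) and 789 in *Xist*-high mice (322 and 467). Over the fits that left out 1 mouse, it lay between 239 (without knockout mouse 3) and 452 (without knockout mouse 1). It was 256 without knockout mouse 2 and 285 without control mouse 3. Higher and lower genes numbered 51 and 188 without knockout mouse 3, and 58 and 198 without knockout mouse 2. They numbered 78 and 207 without control mouse 3. The count of called higher genes was 1 in place of 0, both for the 10 genes and for the zinc gene families, with *Xist* as a covariate and in *Xist*-high mice (*Slc39a10*). The cause of these differences was not tested. *Slc39a4* turned to -0.17 without knockout mouse 4 and was between -0.17 and 0.58 over the fits that each left out 1 mouse. *Slc39a8* turned from -0.36 to 0.0185 in *Xist*-high mice, for which the fit with an interaction gave 0.0198. The log2 fold changes of the other 8 genes kept their sign in all alternatives.

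With the replicate block, 129 genes were called (18 higher and 111 lower) and *Slc30a2* had a log2 fold change of -1.83 (adjusted *P* = 0.0391). *Maf* had a log2 fold change of -4.28 (adjusted *P* = 0.0516), and *Ftl1*, *Steap2*, and *Hmox1* had adjusted *P* values of 0.0557, 0.114, and 0.109 in that fit. The numbers did not pair the mice: same-numbered mice had correlations of -0.373, 0.152, -0.110, and -0.331 in their deviations from the group means, and 1 of 4 knockout mice correlated best with its own number.

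Depth limits the low genes. *Slc39a4* had at most 24 counts in a mouse and was absent from the fit that asked for 10 counts per mouse, and *Mt2* had between 84 and 256 counts from the bases it does not share. With 4 mice per genotype, the intervals of *Mt1* and *Slc39a5* span about 2 log2 units.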
